A study of Mus musculus with 4 samples.

Results

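Arterial-side capillary endothelial cells (ECs) of the mouse lung were examined in single-cell RNA-seq of whole lung. They were chosen by their counts of unique molecular identifiers (UMIs, each marking 1 captured RNA molecule). A cell belonged to the set when its summed UMIs of the endothelial genes Cdh5, Cldn5, Egfl7, Ramp2 and Calcrl reached 4, the leukocyte gene Ptprc had none, the capillary gene Gpihbp1 had at least 1, and at least 2 of the arterial-side genes Sema3g, Hey1, Cxcl12 and Edn1 were detected. At most 1 of the large artery genes Gja5, Bmx, Cytl1, Sfrp1, Pi16 and Kcnn4 was allowed, with fewer than 3 of the interferon genes Ifit1, Ifit3, Isg15, Iigp1 and Gm4951 and fewer than 3 of the aerocyte genes Ednrb, Car4, Fibin, Tbx2 and Chst1. The rule found 933 of all 9363 cells and of 3567 gated ECs (endothelial gate met, no Ptprc UMI). The most similar cells, called other capillary cells, met every other limit but had fewer than 2 of the 4 arterial-side genes, and numbered 634. Because the rule read measured counts, the 27 genes it used are given as levels without a test within the members.

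Lung capillaries form a mesh around the alveoli and hold a pair of endothelial types, the aerocyte, which lies at the gas exchange surface, and the general capillary cell. Gpihbp1 encodes the protein that anchors lipoprotein lipase on the capillary wall and marks general capillary cells. Toward the arteriole, capillary cells carry products of arterial identity, among them Hey1, a transcriptional repressor downstream of Notch, Sema3g, a secreted semaphorin that signals through neuropilins, Cxcl12, the chemokine ligand of Cxcr4, and Edn1, the precursor of the constrictor endothelin-1. ERG is a transcription factor of the ETS family that is present throughout endothelium, where it maintains endothelial identity and represses inflammatory genes.

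The WT group held 2 mice of genotype ERG fl/fl, in which both Erg alleles are floxed and no Cre is present. The ERG CKO group held 2 mice of genotype CDH5-CreER(T):ERG fl/fl, with the same floxed alleles and a tamoxifen-inducible Cre driven by Cdh5, a gene active in all endothelium, so that the deletion was not restricted to capillaries. Lungs were taken after tamoxifen, and each library came from 1 mouse, for which no age is given in the labels. The comparison asks how loss of ERG from endothelium alters these capillary cells.

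The members numbered 325 and 307 in the WT libraries versus 159 and 142 in the ERG CKO libraries (replicates 1 and 2 in each), with 1442838, 1160294, 842999 and 612882 UMIs. Median depth per cell was 3997, 3561, 4714 and 4134 UMIs in the same order. Other capillary cells were shallower, with medians of 1836, 3035, 2017 and 2009.5 UMIs. Xist was detected in replicate 1 of both groups and Ddx3y in replicate 2 of both, so that sex-linked expression was balanced between the groups. Of 7 barcodes that occurred in more than 1 library, 0 were members, and Scrublet called 2 members doublets, which were kept.

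RNA of other cell types was uneven between libraries in a way that touches every comparison below. The summed level of 10 alveolar epithelial markers in members was 10750 CPM (UMIs of a gene per 1000000 UMIs of the cell set in that library) in WT replicate 1 against 579 to 874 in the other 3 libraries, with Sftpc, surfactant protein C, at 8462 in WT replicate 1. Summed erythroid markers reached 4509 in WT replicate 2 and 7719 in ERG CKO replicate 1 against 52 and 53.8 in the others, and in each of these a single cell held 5144 and 6332 haemoglobin UMIs. Fibroblast markers summed to 516 in WT replicate 1 and 824 in ERG CKO replicate 2 against 112 and 180 in the others. In all, 44 members held over 20 UMIs of the markers of another cell type, with 23 and 7 in WT versus 9 and 5 in ERG CKO. Their removal was an alternative added after the data were seen, and brought the epithelial sum to between 584 and 840 in all 4 libraries. T and NK markers summed to no more than 21.2 in any library, with Cd3e at 0. The summed lymphatic markers were 939 and 895 in WT versus 1854 and 1095 in ERG CKO, and nearly all of this was Lyve1, at 888 and 839 in WT versus 1803 and 1048 in ERG CKO, while Prox1 reached at most 2.37 and Ccl21a 0.693.

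The genes of the rule describe what was selected. Sema3g stood at 410 and 371 CPM in WT versus 348 and 390 in ERG CKO members. These levels overlapped those of the 88 arterial ECs (gated ECs with at least 2 large artery genes detected), which were 307 and 261 in WT versus 210 and 466 in ERG CKO. Hey1 stood at 173 and 279 in WT versus 94.9 and 269 in ERG CKO members, so that 1 ERG CKO library lay below both WT libraries and the other within their range. Cxcl12 was 947 and 763 in WT versus 611 and 938 in ERG CKO, and Edn1 was 530 and 402 in WT versus 281 and 367 in ERG CKO. For Edn1 both ERG CKO libraries lay below both WT libraries. Gpihbp1 was 1668 and 1973 in WT versus 1684 and 1842 in ERG CKO, with overlapping groups.

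Cxcl12 and Sema3g were the most often detected of the 4 genes, in 86.4% and 78.1% of members, followed by Edn1 in 59.0% and Hey1 in 52.6%. The share of leukocytes (4419 cells with a Ptprc UMI and an endothelial gate under 4, median 5864 UMIs) with a UMI of these genes was between 0.566% and 0.724%, which gives the level of free RNA beside the members' median of 3984 UMIs. Sema3g and Cxcl12 were found together in 627 members and Sema3g and Hey1 together in 363. In ERG CKO replicate 1, Hey1 was detected in 36.5% of members, against 50.2%, 59.0% and 62.7% in WT replicates 1 and 2 and ERG CKO replicate 2. The members of that library thus rested less on Hey1 and more on Sema3g, which was detected in 86.2% of them.

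The large artery genes kept the members apart from arterial ECs. Gja5, the connexin 40 of arteries, stood at 5.55 and 12.1 CPM in WT versus 19.0 and 13.1 in ERG CKO members, against 272 and 145 in WT versus 53.2 and 61.5 in ERG CKO arterial ECs. Bmx, a kinase of arterial endothelium, ranged from 7.76 to 19.6 in members and from 74.6 to 200.2 in arterial ECs. The aerocyte genes were low as well, with Ednrb, the endothelin receptor B, between 4.31 and 14.2 in members and between 639 and 1738 in aerocytes (gated ECs with at least 3 aerocyte genes detected). Car4, a carbonic anhydrase of aerocytes, was the exception. It stood at 134 and 110 CPM in WT members and 254 and 277 in ERG CKO members, both above both WT libraries. All of these genes were limited by the rule, which therefore fixes part of these values.

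**Figure D1:**
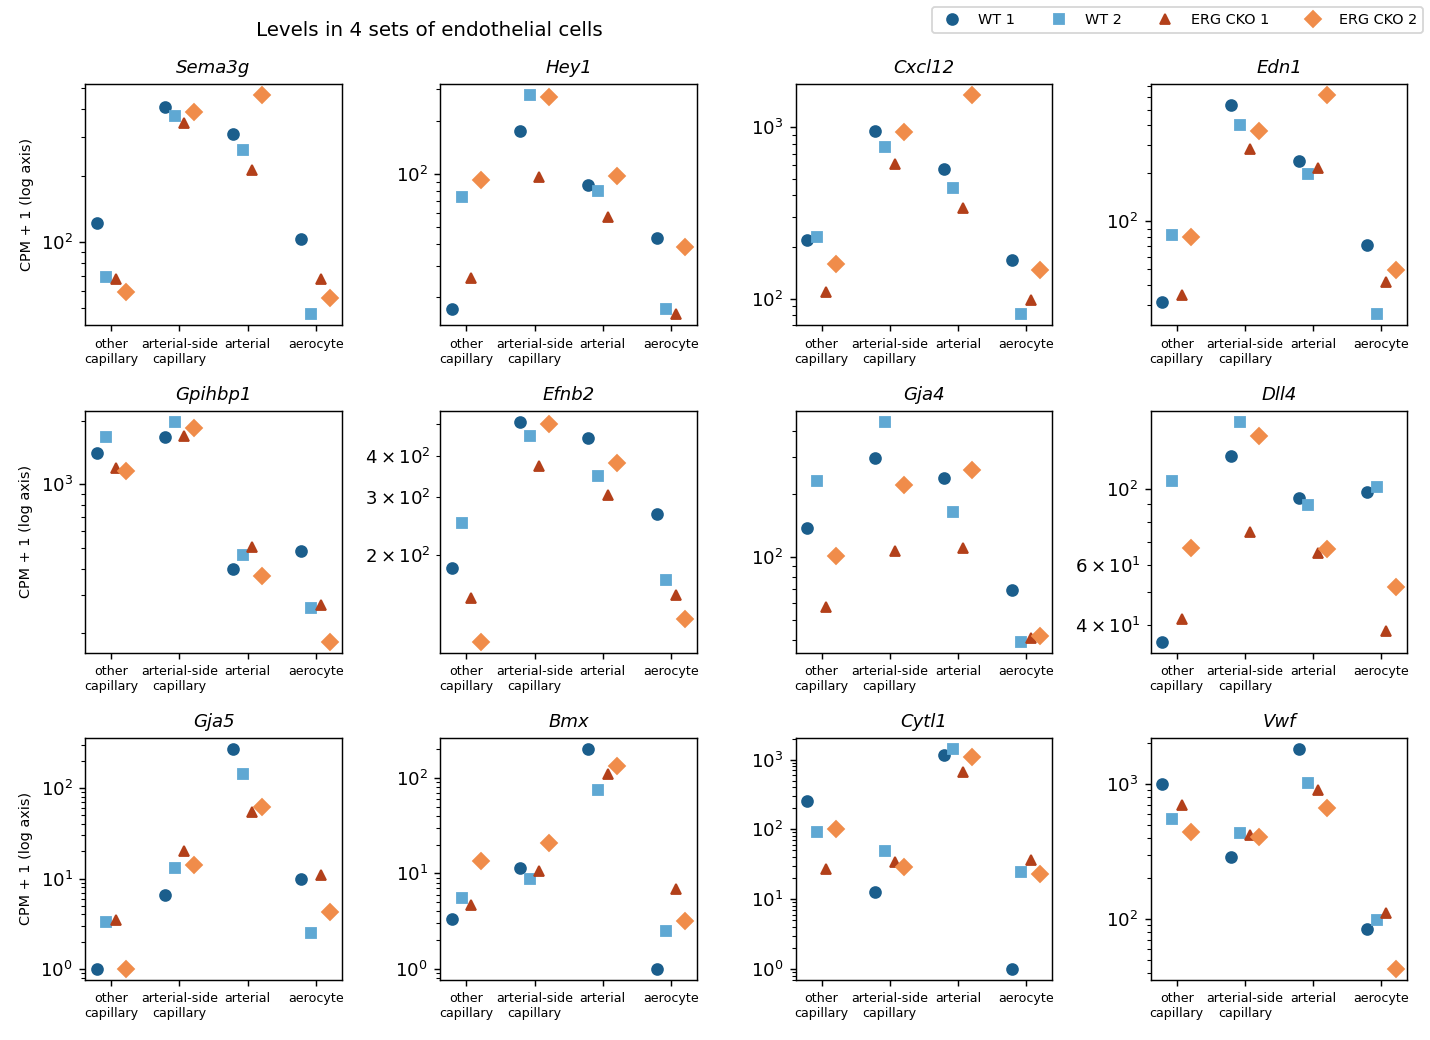
CPM plus 1 (log axis) of 12 genes in other capillary cells, arterial-side capillary cells, arterial ECs and aerocytes, 1 point per library. Efnb2 lay between 370 and 506 in the arterial-side capillary cells and between 108 and 249 in other capillary cells, whereas Gja5 reached at most 19.0 in arterial-side capillary cells.

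The threshold cut a continuous range. Of 1567 capillary cells before the arterial-side genes were asked for, 273 had none of the 4 detected, 361 had 1, 397 had 2, 362 had 3 and 174 had all 4. Median depth went from 1700 UMIs with none to 2918, 3861, 3932 and 4210.5 with all, so detection and depth moved together. Just outside the threshold, cells with 1 of the 4 genes had Sema3g at 198 and 88.6 CPM in WT versus 128 and 85.3 in ERG CKO. Just inside it, cells with 2 of the 4 had Sema3g at 257 and 256 in WT versus 314 and 244 in ERG CKO. Gpihbp1 was 1539 and 1716 in WT versus 1330 and 1340 in ERG CKO just outside, and 1495 and 1856 in WT versus 1686 and 1831 in ERG CKO just inside.

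Genes outside the rule followed the same range. Efnb2, the arterial ephrin ligand, went from 82.7 and 176 CPM in WT versus 100.1 and 104 in ERG CKO cells with none of the 4 genes to 612 and 740 in WT versus 505 and 626 in ERG CKO cells with all 4. Dll4, the endothelial Notch ligand, went from 17.7 and 78.0 in WT versus 25.7 and 51.8 in ERG CKO to 155 and 211 in WT versus 110 and 213 in ERG CKO. Every library was higher at the end than at the start for both genes. Vwf, von Willebrand factor, which is richer in veins, went from 1607 and 390 in WT versus 886 and 246 in ERG CKO with none to 224 and 319 in WT versus 472 and 413 in ERG CKO with all 4, so that 3 libraries were lower at the end and ERG CKO replicate 2 was higher. These levels are sums over cells of 1 library and are given without a test.

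**Figure D2:**
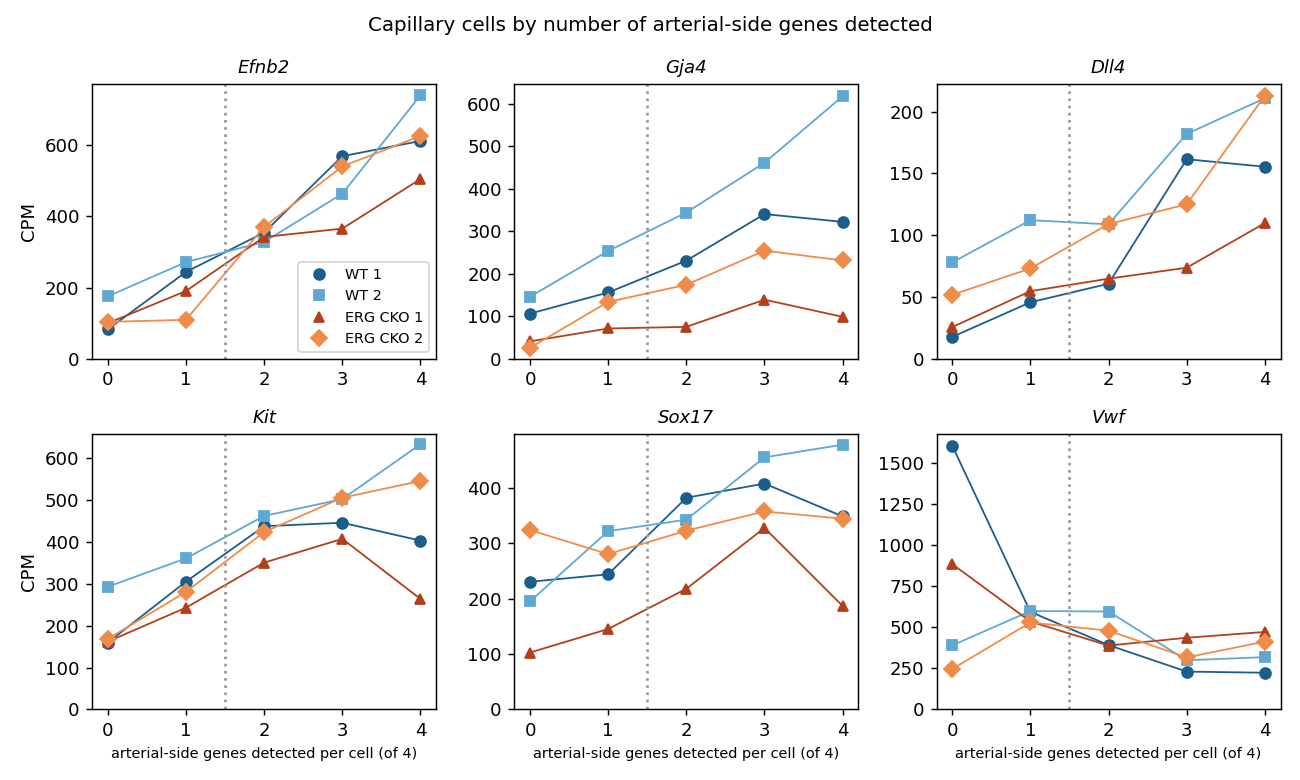
CPM of 6 genes outside the rule in capillary cells grouped by how many of the 4 arterial-side genes were detected, 1 line per library. The dotted line marks the threshold of membership. Efnb2, Gja4 and Dll4 were higher in cells with 4 genes than in cells with none in all 4 libraries, and the Gja4 lines of both ERG CKO libraries ran below both WT lines at every step.

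Compared with other capillary cells, the members carried an arterial and general capillary profile outside the rule. Since the sets were separated by counts of the same cells, the differences are described without a test. Of 5606 genes detected in at least 10% of either set, 15 were at least 1.5 times higher in members in all 4 libraries (0.268%), on CPM with 10 added, and 11 were at least as much lower (0.196%). The 15 higher genes included Slc6a6, the taurine transporter, at 288 and 212 CPM in WT versus 208 and 246 in ERG CKO members. Slc6a6 stood at 107 and 52.1 in WT versus 32.1 and 87.0 in ERG CKO other capillary cells, and no library of the sets overlapped. When every cell was thinned to 2000 UMIs, 13 of the 15 genes were higher in members in all 4 libraries, with Cd300lg and Nxpe4 as the exceptions. Of the 10 named lower genes, Ppbp was the exception, with a thinned log2 difference of 0.40 in WT replicate 1.

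Efnb2 and Gja4 were the arterial genes among the 15. Efnb2 stood at 506 and 457 CPM in WT versus 370 and 499 in ERG CKO members, against 181 and 249 in WT versus 147 and 108 in ERG CKO other capillary cells. Gja4, the connexin 37 that couples arterial and capillary ECs, was 297 and 440 in WT versus 106 and 219 in ERG CKO members, against 137 and 229 in WT versus 56.8 and 99.4 in ERG CKO other capillary cells. Within each library Gja4 was about as far above the other capillary cells, with log2 differences of CPM plus 10 between 0.79 and 1.06. The remaining higher genes were the heat shock gene Hspa1b, the neurotrophin receptor Ntrk2, Cdk19, Pknox2, Casc4, the phosphatase Dusp6, the lipase Mgll, the plasminogen activator Plat, Id1, a target of BMP signaling, and Ace, the angiotensin-converting enzyme. Ace was 1108 and 1103 in WT versus 1163 and 1447 in ERG CKO members and 727 and 653 in WT versus 730 and 945 in ERG CKO other capillary cells.

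The promoters of Efnb2 and Gja4 are shown because these genes set the members apart outside the rule, with those of Cited2 and Tgfbi, which are described below for ERG CKO. Each runs from 250 bases before the start of the gene to 50 bases after it and is taken from RefSeq on GRCm38.p6, the patched release of the mm10 build named in the submitters' processing notes. The windows are chr8:8661193-8661492 on the minus strand for Efnb2, chr4:127313990-127314289 on the minus strand for Gja4, chr10:17722978-17723277 on the plus strand for Cited2 and chr13:56609336-56609635 on the plus strand for Tgfbi. Capitals mark matches on either strand to the ETS motif AGGAAG or the RBPJ motif GTGGGAA, the binding letters of ERG's family and of the Notch effector.
Efnb2: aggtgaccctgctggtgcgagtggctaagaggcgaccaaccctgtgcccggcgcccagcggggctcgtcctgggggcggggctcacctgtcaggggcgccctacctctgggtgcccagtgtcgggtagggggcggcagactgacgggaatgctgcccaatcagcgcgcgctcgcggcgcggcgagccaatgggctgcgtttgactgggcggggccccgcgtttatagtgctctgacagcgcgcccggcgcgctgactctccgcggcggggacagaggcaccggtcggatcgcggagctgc
Gja4: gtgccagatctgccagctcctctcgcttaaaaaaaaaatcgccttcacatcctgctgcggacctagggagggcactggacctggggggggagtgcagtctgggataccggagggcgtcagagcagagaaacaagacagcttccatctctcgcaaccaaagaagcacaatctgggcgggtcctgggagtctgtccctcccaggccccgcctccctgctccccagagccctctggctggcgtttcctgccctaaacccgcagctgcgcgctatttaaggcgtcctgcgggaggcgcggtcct
Cited2: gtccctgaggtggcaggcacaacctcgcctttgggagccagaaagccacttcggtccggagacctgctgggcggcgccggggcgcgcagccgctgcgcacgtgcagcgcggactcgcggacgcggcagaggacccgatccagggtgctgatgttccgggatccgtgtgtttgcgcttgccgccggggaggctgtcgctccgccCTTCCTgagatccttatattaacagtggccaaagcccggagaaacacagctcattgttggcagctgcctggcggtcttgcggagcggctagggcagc
Tgfbi: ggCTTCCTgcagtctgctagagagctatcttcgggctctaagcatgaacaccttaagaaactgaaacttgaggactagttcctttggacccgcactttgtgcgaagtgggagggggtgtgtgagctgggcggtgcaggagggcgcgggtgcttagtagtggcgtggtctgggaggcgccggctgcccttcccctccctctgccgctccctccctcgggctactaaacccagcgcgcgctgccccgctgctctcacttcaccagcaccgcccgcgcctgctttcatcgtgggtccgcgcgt
The ETS letters were found once in the Cited2 window, on the reverse strand, starting 47 bases before the gene start, and once in the Tgfbi window, on the reverse strand, starting 248 bases before it. The windows of Efnb2 and Gja4 held neither motif, and the RBPJ letters were found in none of the windows. Of 32851 promoters of this length, 35.35% held the ETS motif and 6.38% the RBPJ motif, so a single ETS match is common.

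Genes lower in members were of mixed kinds. Bst1, an ectoenzyme enriched in venous endothelium, stood at 12.5 and 32.8 CPM in WT versus 27.3 and 11.4 in ERG CKO members, against 144 and 65.7 in WT versus 121 and 74.6 in ERG CKO other capillary cells. Bgn, the matrix proteoglycan biglycan, was 141 and 79.3 in WT versus 142 and 170 in ERG CKO members, against 452 and 145 in WT versus 375 and 340 in ERG CKO other capillary cells. The other named genes on this side were Cryab, Lbp, Rgs10, Odc1, Cd81, Emp3, the scavenging Cxcl12 receptor Ackr3 and Ppbp, a platelet gene. The platelet list summed to between 641 and 841 in members and between 934 and 2879 in other capillary cells, and its part in the difference was not tested.

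Gene lists gave the same outline. Of all 11145 genes detected in at least 1% of either set, 10.7% were higher and 9.39% lower in members in all 4 libraries. Of 20 general capillary genes, 16 were higher and 0 lower. Among these were Kit, the stem cell factor receptor, at 430 and 508 CPM in WT versus 365 and 485 in ERG CKO members against 204 to 345 in other capillary cells, and Tek, the angiopoietin receptor, at 572 and 652 in WT versus 442 and 485 in ERG CKO members against 280 to 549. Tek ranges of the sets thus overlapped between libraries, while those of Kit did not. Aplnr, the apelin receptor, and Nrp1 were among the general capillary genes that were not higher in all libraries.

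Of 15 venous genes, 11 were lower in members in all 4 libraries and 0 higher, with a median log2 difference of -0.81 against 0.02 over all genes. Slc6a2, the noradrenaline transporter, was 94.95 and 154 CPM in WT versus 74.7 and 86.5 in ERG CKO members, against 651 and 206 in WT versus 457 and 211 in ERG CKO other capillary cells. Nr2f2, the venous identity factor COUP-TFII, ranged from 32.6 to 49.2 in members and from 41.4 to 144 in other capillary cells. The other capillary cells thus carried more RNA of venous genes, besides being shallower. They also held more cells with over 10% mitochondrial UMIs, at 10.3% and 8.78% in WT versus 18.5% and 19.4% in ERG CKO. Among members these were 1.85% and 0.651% in WT versus 4.40% and 4.93% in ERG CKO. The list counts were not repeated on thinned cells or without such cells. Of 26 Notch and arterial identity genes, 10 were higher, among them Efnb2, Gja4, Dll4, Sox17, Jag2 and Notch4, and 5 were lower, among them Jag1, Fbln5 and Vegfc. Of 27 endothelial transcription factors, 10 were higher, among them Sox17, Sox18, Sox7 and Gata2, and 2 were lower. Of 25 TGF-beta and BMP genes, 10 were higher, among them the receptors Acvrl1, Bmpr2 and Eng and the targets Smad6, Smad7, Id1 and Id3, and 4 were lower.

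The share of these cells was lower in both ERG CKO libraries, in a design too small for the test to reach 0.05. They made up 38.2% and 34.8% of gated ECs in WT versus 13.8% and 20.9% in ERG CKO, with Wilson 95% intervals of 35.0 to 41.5, 31.7 to 38.0, 11.9 to 15.9 and 17.995 to 24.1, which cover counting error only. Both ERG CKO libraries lay below both WT libraries. The mean was 36.5% ± 2.45 (SD, n = 2) in WT and 17.3% ± 5.02 (SD, n = 2) in ERG CKO, a difference of -19.2 percentage points. The exact two-sided permutation test gave p = 0.333, the smallest value that 2 mice against 2 allow. After each cell was thinned to 2000 UMIs, with 183, 146, 319 and 184 shallower cells left out, the shares were 36.6% and 31.6% in WT versus 13.3% and 21.2% in ERG CKO.

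Within capillary cells the ERG CKO libraries differed from each other. Of cells that met the limits other than the arterial-side genes, 67.7% and 67.5% were members in WT, 38.0% in ERG CKO replicate 1 and 66.4% in ERG CKO replicate 2. The last of these lay within the counting intervals of both WT libraries, 63.4 to 71.7 and 63.0 to 71.6, so that ERG CKO replicate 1 alone stood apart. The difference of the means was -15.4 percentage points (exact permutation p = 0.333). After thinning the shares were 54.2% and 52.3% in WT versus 33.1% and 57.6% in ERG CKO, with overlapping groups. The share of gated ECs also depends on Gpihbp1, which stood at 1246 and 1275 CPM in WT versus 827 and 665 in ERG CKO gated ECs (edgeR log2 fold change -0.81, SE 0.17, adjusted p = 0.128). Without the Gpihbp1 requirement the shares were 40.7% and 37.4% in WT versus 17.2% and 27.9% in ERG CKO. Since the rule reads genes whose levels may differ between the groups, fewer such cells and lower levels of their genes cannot be told apart.

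**Figure D3:**
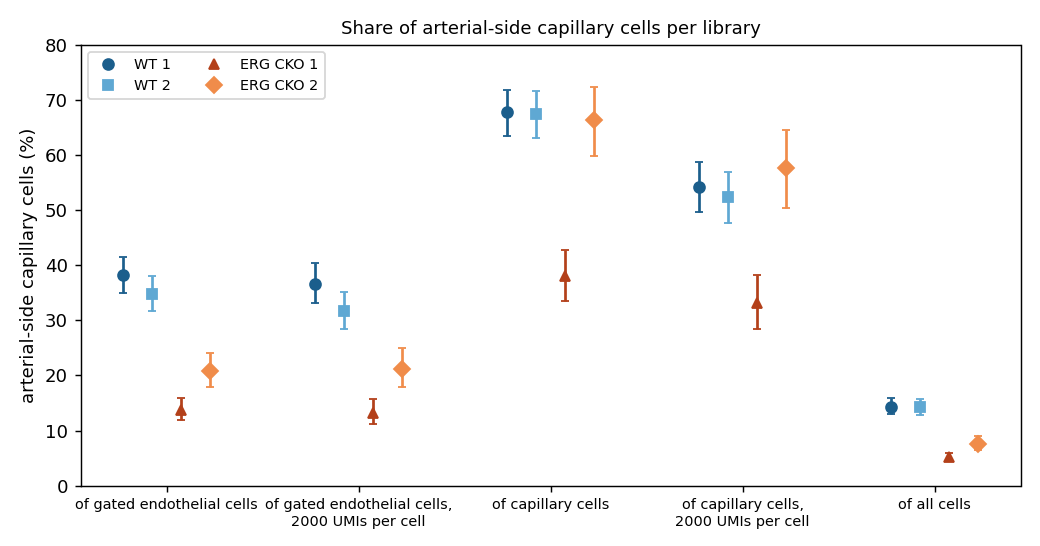
Percentage of arterial-side capillary cells per library with Wilson 95% intervals, of gated ECs, of capillary cells and of all cells, with and without thinning. Both ERG CKO libraries lay below WT as a share of gated ECs, whereas ERG CKO replicate 2 reached 66.4% of capillary cells beside 67.7% and 67.5% in WT.

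Within the members, WT and ERG CKO were compared on UMIs summed per library. Erg itself stood at 99.8 and 84.5 CPM in WT (144 and 98 UMIs) and 126 and 103 in ERG CKO (106 and 63 UMIs), so both ERG CKO libraries lay above both WT libraries (log2 fold change 0.30, SE 0.19, adjusted p = 0.883). The matrix holds 1 count per gene and cannot separate a deleted part of the transcript from the rest, so this level does not check the deletion. Fli1, the closest relative of Erg, was 116 and 135 in WT versus 186 and 97.9 in ERG CKO, with overlapping groups. Of 13 ETS factors tested, 0 passed the test.

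The edgeR quasi-likelihood test called 0 of 8615 genes (0.0%) at an adjusted p (Benjamini-Hochberg) up to 0.05, where 562 had an unadjusted p under 0.05, and DESeq2 called 5 on the same sums, of which those outside the rule were Srgn, 1810011O10Rik, Marcks and Gja4. In 18.5% of genes both ERG CKO libraries lay above both WT libraries and in 16.5% below. Without the 44 cells that carried RNA of another cell type, an alternative added after the data were seen, edgeR called 25 of 8330 genes, 21 higher (0.252%) and 4 lower (0.048%). These counts run over all genes in the fit, and 1 of the 21 is a gene of the rule, for which no test is given. Most genes below are therefore given with their adjusted p over all 933 members and, where called without those cells, with that value as well. Some genes are only named, or given without an adjusted p. In simulated data with the same library sizes the test recovered 94.8% of 4-fold and 41.1% of 2-fold changes, with 9 false calls among 8628 genes. The simulation gave every gene the same spread between mice and added no RNA of other cell types. It therefore does not give the recovery in these libraries. The summed platelet markers in members were 641 and 681 CPM in WT versus 841 and 760 in ERG CKO, wholly higher. Most of each sum was Gng11, detected in 75.6% of members, at 441 and 495 in WT versus 461 and 551 in ERG CKO. Without cells of another lineage the summed platelet markers were 508 and 590 versus 651 and 582, where the groups overlapped. Their part in these differences was not tested.

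Aplnr, the receptor of apelin, had the smallest p among general capillary genes. It stood at 122 and 146 CPM in WT versus 66.4 and 68.5 in ERG CKO members, and the groups did not overlap. The log2 fold change was -1.002 (SE 0.18, adjusted p = 0.272), and without cells of another lineage it was -1.07 (SE 0.20) and passed the test (adjusted p = 0.0399). Other capillary cells gave 120.5 and 213 in WT versus 61.7 and 149 in ERG CKO, where the groups overlapped. Apln, which encodes the ligand and marks aerocytes and sprouting cells, pointed the other way at 4.85 and 2.59 in WT versus 17.8 and 44.1 in ERG CKO (log2 fold change 2.90, SE 0.58, adjusted p = 0.303), on 7, 3, 15 and 27 UMIs. It fell under the filter on low counts without cells of another lineage.

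Gja4 had a lower level in ERG CKO members, at the values given above, which did not overlap with WT (log2 fold change -1.22, SE 0.32, adjusted p = 0.506). DESeq2 called it (adjusted p = 0.0492), and edgeR without cells of another lineage gave an adjusted p of 0.0671. Cited2, a coactivator partner of CBP and p300 that restrains hypoxia signaling, stood at 143 and 157 CPM in WT versus 83.0 and 55.5 in ERG CKO. Cited2 had a log2 fold change of -1.10 (SE 0.22, adjusted p = 0.303), and the groups did not overlap. Its promoter window, printed above, holds 1 ETS match.

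Of the lower genes called without cells of another lineage, the other 3 were Ier5l, 1810011O10Rik and Ncald. Ier5l was 236 and 314 CPM in WT versus 147 and 134 in ERG CKO (log2 fold change -1.04 without those cells, adjusted p = 0.0399, and -0.98 with them, adjusted p = 0.303). 1810011O10Rik was 460.2 and 418 in WT versus 253 and 206 in ERG CKO, with adjusted p of 0.0449 without those cells and 0.34 with them. Ncald, a neuronal calcium sensor of the neurocalcin type, was 196 and 231 in WT versus 126 and 124 in ERG CKO, with adjusted p of 0.0449 and 0.364. In all 3 genes the groups were apart. Irgm1, an interferon-inducible GTPase, at 120 and 128 in WT versus 64.1 and 62.0 in ERG CKO, Snhg12, Ripk1, Pde12 and Gm13889 made up the rest of the 10 lower genes with the smallest p, and passed the test under neither set of cells.

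On the higher side, Mal, a membrane raft protein, stood at 11.1 and 6.90 CPM in WT versus 64.1 and 39.2 in ERG CKO members, on 16, 8, 54 and 24 UMIs. The log2 fold change of Mal was 2.49 (SE 0.38, adjusted p = 0.272), and 2.996 (SE 0.39, adjusted p = 0.00545) without cells of another lineage. Tnfrsf11b, which encodes the decoy receptor osteoprotegerin, was 1.39 and 0.862 in WT versus 20.2 and 29.4 in ERG CKO, on 2, 1, 17 and 18 UMIs. Tnfrsf11b had a log2 fold change of 4.25 (SE 0.59, adjusted p = 0.272) with all members and passed the test without those cells (adjusted p = 0.0181). Both genes were near absent in WT and low in ERG CKO, so their folds rest on few molecules.

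Sema5a, a transmembrane semaphorin, was 8.32 and 4.31 CPM in WT versus 56.9 and 26.1 in ERG CKO (log2 fold change 2.68, SE 0.50, adjusted p = 0.272). It passed the test without cells of another lineage (log2 fold change 3.03, adjusted p = 0.0203), and other capillary cells showed 4.63 and 4.53 in WT versus 40.7 and 49.7 in ERG CKO. Tgfbi, a matrix protein induced by TGF-beta, was 3.47 and 2.59 in WT versus 17.8 and 26.1 in ERG CKO members, with an adjusted p of 0.272 with all members and 0.0399 without those cells. Other capillary cells held 0 Tgfbi UMIs in WT and 44 in ERG CKO, which against the level that 3 UMIs over both WT libraries stand for was at least 12.2-fold higher. Neither gene was restricted to the members.

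Fscn1, the actin bundler fascin, was 9.70 and 9.48 CPM in WT versus 33.2 and 50.6 in ERG CKO (adjusted p = 0.272 with all members and 0.0244 without cells of another lineage). Trp53i11 was 32.6 and 24.99 in WT versus 130.5 and 63.6 in ERG CKO (adjusted p = 0.303 and 0.0244). Slc12a2, the sodium-potassium-chloride cotransporter, was 22.2 and 7.76 in WT versus 84.2 and 50.6 in ERG CKO (adjusted p = 0.303 and 0.0181). All 3 had no overlap between groups. Spry1, an inhibitor of receptor tyrosine kinase signaling, was 30.5 and 19.0 in WT versus 58.1 and 84.9 in ERG CKO (adjusted p = 0.303 and 0.0254).

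Igfbp5, an IGF-binding protein, and Scd1 were the called genes whose values moved most when cells of another lineage were left out. For Igfbp5, with all members it stood at 18.02 and 0.862 CPM in WT versus 102 and 22.8 in ERG CKO (log2 fold change 2.66, SE 0.82, adjusted p = 0.551), and without those cells the log2 fold change was 6.13 (SE 0.81, adjusted p = 0.00545). The level in WT replicate 2 lay under the 2.59 CPM that 3 UMIs stand for in that library, so the size of these folds is uncertain. Scd1, a fatty acid desaturase that is high in alveolar type II cells, changed sign. It was 150.4 and 6.90 in WT versus 70.0 and 31.0 in ERG CKO, with a log2 fold change of -0.65 (adjusted p = 0.965) with all members and 2.29 (adjusted p = 0.0399) without those cells. The further called genes were Oas2, Gm12840, Tnik, Ctgf, Celf2, Ildr2, Serpina3g, Mbd1, Ctdspl and Srgn, each higher. Ildr2 had 0 UMIs in WT and 15 in ERG CKO, at least 8.94-fold higher than the level of 3 UMIs over both WT libraries. Plac8 was among the 10 higher genes with the smallest p and had an adjusted p of 0.0669 without those cells. C1qa, a macrophage complement gene, had 0 UMIs in WT versus 12 and 7 in ERG CKO, at least 11.3-fold higher by the same bound. The summed level of 10 macrophage markers was 949.5 and 165 in WT versus 275 and 230 in ERG CKO, with overlapping groups, and Lyz2 alone stood at 859 in WT replicate 1. Without cells of another lineage the sum was 157 and 155.5 in WT versus 229 and 205 in ERG CKO, wholly higher, and its part in the called genes was not tested.

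**Figure D4:**
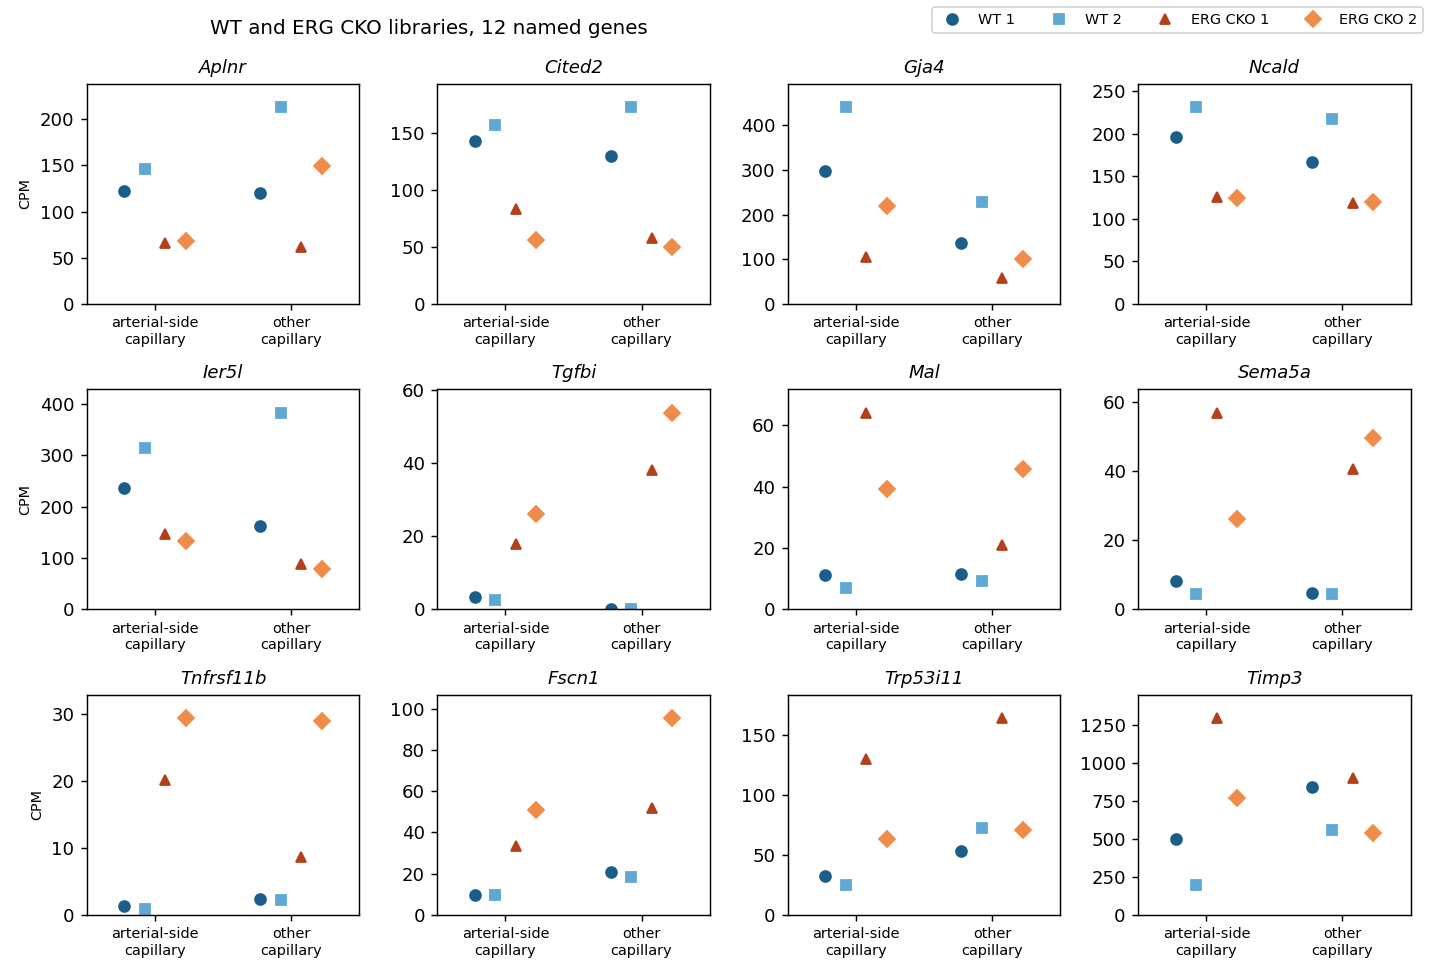
CPM of 12 named genes in arterial-side and other capillary cells, 1 point per library. In arterial-side capillary cells both ERG CKO libraries lay below both WT libraries for Aplnr, Cited2, Gja4, Ncald and Ier5l and above them for the other 7 genes, and Timp3 separated the groups in arterial-side capillary cells but not in other capillary cells.

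By gene list, counts of wholly higher and wholly lower genes are to be read beside the 18.5% and 16.5% of all genes. Of 24 Notch and arterial identity genes tested, 0 passed the test, 4 lay wholly higher and 6 wholly lower in ERG CKO, and the median log2 fold change was -0.11 against -0.0014 over all genes. Sox17, a transcription factor of arterial fate, was 381 and 411 CPM in WT versus 262 and 341 in ERG CKO (log2 fold change -0.42, SE 0.20, adjusted p = 0.782). Notch1 was 279 and 240 in WT versus 219.5 and 196 in ERG CKO (log2 fold change -0.34, SE 0.19, adjusted p = 0.851). Efnb2 and Dll4 overlapped between the groups, with log2 fold changes of -0.17 (SE 0.20) and -0.42 (SE 0.27). Fbln2, a matrix fibulin, was 6.24 and 7.76 in WT versus 43.9 and 19.6 in ERG CKO (log2 fold change 2.21, SE 0.48, adjusted p = 0.364), and Cd34, a sialomucin, was 118 and 91.4 in WT versus 153 and 230.1 in ERG CKO (log2 fold change 0.83, SE 0.22, adjusted p = 0.506).

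Of 20 general capillary genes tested, 0 passed the test, 7 lay wholly lower (16.5% of all genes did) and 1 wholly higher (18.5% of all genes), and 1, Aplnr, was called without cells of another lineage. Tek was 572 and 652 in WT versus 442 and 485 in ERG CKO (log2 fold change -0.42, SE 0.18, adjusted p = 0.748), Adgre5 was 1160 and 1278 in WT versus 711 and 971 in ERG CKO (log2 fold change -0.56, SE 0.19, adjusted p = 0.638), and Glp1r, the GLP-1 receptor, was 22.9 and 30.2 in WT versus 7.12 and 13.1 in ERG CKO (log2 fold change -1.45, SE 0.41, adjusted p = 0.506). The groups were apart for each. Kit, Plvap, Efna1, Nrp1 and Cd36 overlapped between the groups, and Cd36, the fatty acid translocase, was nearly level at 2090 and 2309 in WT versus 1968 and 2131 in ERG CKO (log2 fold change -0.12, SE 0.15). Lpl, lipoprotein lipase, lay wholly higher at 530 and 489 in WT versus 773 and 848 in ERG CKO (log2 fold change 0.65, SE 0.18, adjusted p = 0.506).

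Of 21 immediate early genes tested, 15 lay wholly lower in ERG CKO, beside 16.5% of all genes, and 0 wholly higher, with a median log2 fold change of -0.46, and 12 had an unadjusted p under 0.05, yet 0 passed the test with all members or without cells of another lineage. Egr1 stood at 2094 and 2156 CPM in WT versus 1406 and 1292 in ERG CKO (log2 fold change -0.67, SE 0.15, adjusted p = 0.397). Jun was 4149 and 4693 in WT versus 2892 and 3218 in ERG CKO (log2 fold change -0.55, SE 0.13, adjusted p = 0.421), and Ier5 was 649 and 658 in WT versus 377 and 421 in ERG CKO (log2 fold change -0.73, SE 0.18, adjusted p = 0.421). These genes also respond to tissue dissociation, and the part of dissociation was not tested. Members with over 10% mitochondrial UMIs made up 1.85% and 0.651% in WT versus 4.40% and 4.93% in ERG CKO, and without them the log2 fold changes were -0.66 for Egr1, -0.54 for Jun and -0.72 for Ier5.

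Matrix and coagulation genes held 0 calls. Of 14 basement membrane and matrix genes tested, 7 lay wholly higher and 1 wholly lower, with a median log2 fold change of 0.28, and of 11 coagulation and fibrinolysis genes 6 lay wholly higher and 1 wholly lower, with a median of 0.24, beside 18.5% wholly higher and 16.5% wholly lower over all genes. Plat was 211 and 154 in WT versus 427 and 255 in ERG CKO (log2 fold change 0.89, SE 0.28, adjusted p = 0.569), and F8, coagulation factor VIII, was 3.47 and 2.59 in WT versus 10.7 and 27.7 in ERG CKO (log2 fold change 2.52, SE 0.63, adjusted p = 0.448). Of 22 TGF-beta and BMP genes, 5 lay wholly higher, 6 wholly lower and 1, Tgfbi, was called without cells of another lineage. Smad6, the inhibitory Smad, was 419 and 415 in WT versus 184 and 352 in ERG CKO (log2 fold change -0.67, SE 0.27), Id2 was 117 and 189 in WT versus 59.3 and 114 in ERG CKO (log2 fold change -0.86, SE 0.31), and Tgfbr2, the type II receptor, was 71.4 and 70.7 in WT versus 104 and 103 in ERG CKO (log2 fold change 0.53, SE 0.17). None of the 3 passed the test, with adjusted p of 0.737, 0.671 and 0.608.

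Of 24 interferon and MHC class I genes, 4 lay wholly higher and 7 wholly lower, so the list did not point one way. Ifi27l2a was 21.5 and 8.62 in WT versus 141 and 48.9 in ERG CKO (log2 fold change 2.63, SE 0.53, adjusted p = 0.303), whereas Irgm1 and Igtp lay lower. The venous list split into 2 wholly higher and 3 wholly lower of 13, the aerocyte list into 1 and 3 of 15, the p53 and growth arrest list into 5 and 5 of 17, and the junction list into 1 and 1 of 14. The guidance list split into 3 and 4 of 21, the vasoactive list into 3 and 2 of 16, the lipid uptake list into 1 and 2 of 10, the endothelial transcription factors into 5 and 7 of 27, leukocyte adhesion into 2 and 1 of 9, the VEGF and angiopoietin list into 5 and 5 of 20 and the mesenchymal list into 3 and 1 of 8. Nos3, endothelial nitric oxide synthase, was 44.4 and 37.1 in WT versus 59.3 and 21.2 in ERG CKO, and Klf2, a flow-responsive factor, was 2749 and 2074 in WT versus 3326 and 2503 in ERG CKO, both with overlapping groups.

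**Figure D5:**
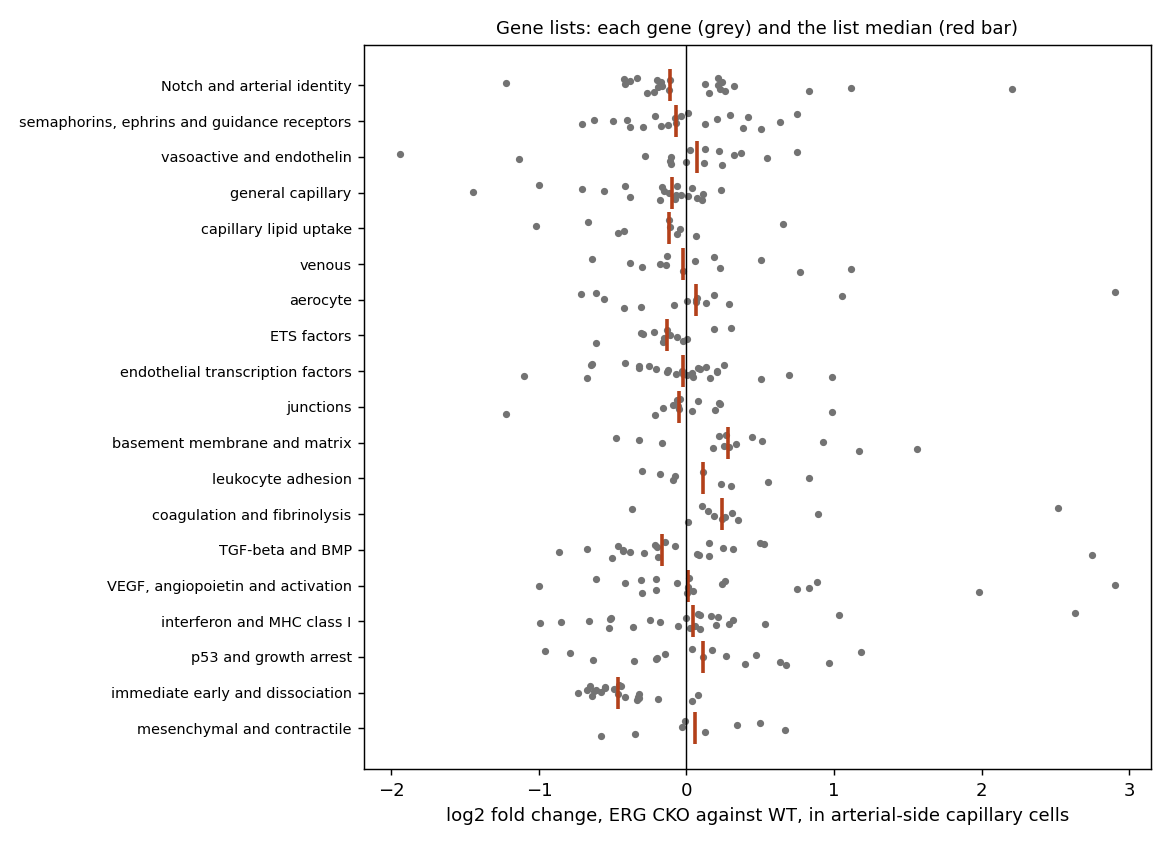
Log2 fold change of ERG CKO against WT in arterial-side capillary cells (horizontal axis) for each tested gene of 19 lists (grey points), with the list median as a red bar and the median of all tested genes as a vertical line. The immediate early list has its median at -0.46 and the matrix list at 0.28.

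Whether the effect of ERG CKO differed between arterial-side and other capillary cells was tested as an interaction within libraries. The edgeR quasi-likelihood test called 18 of 8446 genes (0.213%), and Timp3 was the only one of these with a more positive difference in the members. Timp3, a matrix-bound inhibitor of metalloproteinases, stood at 497 and 196 CPM in WT versus 1297 and 769 in ERG CKO members, and at 845.5 and 560 in WT versus 900.2 and 543 in ERG CKO other capillary cells. The groups were apart in members and overlapped in other capillary cells. The log2 fold change was 1.56 (SE 0.41, adjusted p = 0.506) in members and 0.05 (adjusted p = 0.994) in other capillary cells, and their difference was 1.63 (SE 0.21, adjusted p = 0.0026). The value in members depended on single libraries, at 2.39 without WT replicate 1 and 1.04 without WT replicate 2. The difference was 2.04 and 1.275 in these cases. With same-numbered libraries as a block, a pairing the labels do not give, the value in members was 1.65 (SE 0.18, adjusted p = 0.00125). Without cells of another lineage the interaction was called for 1 of 8076 genes, Timp3, with a difference of 1.77 (SE 0.20, adjusted p = 0.000228).

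Timp3 is also made by mural cells and fibroblasts, and their part in its level in either set, or in the difference between the sets, was not tested. The summed pericyte and smooth muscle markers in members were 343 and 128 in WT versus 119 and 75.1 in ERG CKO. In other capillary cells they were 602 and 379 in WT versus 179 and 87.0 in ERG CKO. The fibroblast sum in members was highest in ERG CKO replicate 2. The other 17 called genes had lower differences in members, led by Sftpa1, Hbb-bt, Sftpd, Hba-a2, Hbb-bs and Napsa, which are genes of alveolar type II cells and haemoglobin genes. In members the epithelial sum was highest in WT replicate 1, while in other capillary cells it was highest in ERG CKO replicate 1, at 4252 against 592.5 to 832 in the other 3 libraries. The erythroid sum in other capillary cells was 7430 in ERG CKO replicate 1 and at most 58.0 elsewhere. In other capillary cells alone, edgeR called 3 of 6301 genes (0.0476%), Slc12a2 higher and Spp1 and Ccl21a lower. Ccl21a, a lymphatic marker, stood there at 755 and 764 CPM in WT and at 0 in ERG CKO, with a UMI in only 0.473% of the cells. The part of lymphatic cells in this call was not tested.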

How the data were processed

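Whole lungs of 4 mice were profiled with 10x Genomics libraries. Per the labels the deposited counts are UMI counts per gene and cell from Cell Ranger 3.1.0 with mm10 as build, not normalized. The authors state a quality filter without its limits and kept fewer profiles than the matrix holds, and every profile in the matrix was used here. Gene symbols present more than once (13) were kept apart. The members and lists were chosen with earlier results of these data known.

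UMIs were summed per library and cell set, with the mouse as replicate (n = 2 per group). The libraries held 11263911 to 18646776 UMIs over 1852 to 3097 cells. WT and ERG CKO sums were compared with edgeR 4.0.16 (TMM, filterByExpr, quasi-likelihood test, R 4.3.3), Benjamini-Hochberg adjusted over all genes tested, with 0.05 as the limit for a call. The interaction was fitted over 8 sums with the library as a block. Shares were compared by exact two-sided permutation. Intervals are Wilson 95% and, like floors of 3 UMIs, cover counting error only. Doublets were called with Scrublet (scanpy 1.11.5). Groups were called apart, or wholly higher or lower, where both libraries of one lay beyond both of the other.

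Named genes were the 10 in each direction with the smallest p among genes outside the rule whose groups were apart, the 4 of smallest p in each list, a set of arterial, capillary and ETS genes, the 15 highest and 10 lowest genes of the profile by their smallest log2 ratio over libraries, and up to 6 called interaction genes per direction. The list examples beyond these, and the 25 genes called without cells of another lineage, were chosen after their values were seen. Alternatives were RLE scaling, no filter on low counts, each library left out, DESeq2 1.42.0, a replicate block, thinning, and other limits on cells. The fits were tested on simulated counts. The genes Gucy1a1 and Afdn of the lists were not analysed here.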

Additional observations from a re-analysis of the deposited data

Results flagged for a closer look

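The interaction test, which asks whether the ERG CKO difference was the same in arterial-side and other capillary cells, named 7 genes for a closer look. Timp3 had a log2 difference of 1.63 between the sets and was called in all 7 alternatives tried, with differences between 1.27 and 2.04 and adjusted p between 1.48e-18 and 0.03997 (edgeR quasi-likelihood test). The other 6 had differences of -9.82 for Sftpa1, -9.65 for Sftpd and -11.7 for Napsa, and of -5.46 for Hbb-bt, -5.28 for Hba-a2 and -6.73 for Hbb-bs. Leaving out cells with over 20 UMIs of another cell type's markers says nothing on these 6, since those cells were picked by surfactant, haemoglobin and other such markers, and 3 of the 6 then fell under the filter on low counts. Timp3 is not among those markers.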

How the results depend on the processing

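The number of genes called in arterial-side capillary cells was 0 with RLE scaling, without doublets, with thinned cells, with a low mitochondrial share, without haemoglobin or platelet cells, with at least 3 arterial-side genes and with the stricter gate. It was 190 with no filter on low counts, 5 with DESeq2, 5 with no Gpihbp1 requirement and 25 without cells of another lineage (chosen after seeing the data). Leaving out 1 library gave 2 to 105 calls, namely 105 and 96 when WT replicate 1 or 2 was dropped and 2 and 18 when ERG CKO replicate 1 or 2 was dropped, and the lone library left was assumed to vary like the other group. Of the 25 genes, 21, 14, 0 and 5 were among these calls. In other capillary cells the count of 3 became 147 with no filter, 9 without cells of another lineage and 118 to 167 with 1 library left out. For the interaction, 18 became 70 with no filter, 1 without cells of another lineage and 5 to 36 with 1 library left out (5 without WT replicate 1, 36 without ERG CKO replicate 2). The cause of these shifts was not tested.

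The replicate block moved the count from 0 to 74 in arterial-side capillary cells, with 20 of the 25 genes among the 74, and from 3 to 72 in other capillary cells. The labels give same-numbered libraries only a shared number. They also matched in Xist and Ddx3y, and their deviations correlated by 0.064, so the numbers were not taken as pairs.

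The share difference was -12.19 percentage points with at least 3 arterial-side genes and -22.72 to -15.62 with 1 library left out, and stayed negative in all alternatives. The Scd1 log2 fold change of -0.65 reversed to 2.88 without WT replicate 1 and 2.29 without cells of another lineage, and ranged down to -1.542 without WT replicate 2. Of 1724 recomputed values of 107 named genes, 1533 stayed on the same side of the threshold, whatever their sign. Another 189 newly passed it with the same sign and 2 passed it with the opposite sign. Sign changes that did not pass the threshold were not counted apart. At 2 mice per group the simulated interaction test, with the same spread for every gene, recovered 51.0% of 4-fold and 8.33% of 2-fold changes. Even there most differences of about 2-fold were missed, and the recovery in these libraries is not known.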
